A study of Mus musculus with 10 samples.

Results

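The 8 genes described here encode enzymes, receptors and transporters of oxysterols, the oxidised forms of cholesterol. They are Ch25h, Cyp7b1, Hsd3b7 and Cyp27a1 (enzymes), Nr1h2 and Nr1h3 (receptors), and Abca1 and Abcg1 (transporters). The group was chosen by name around Ch25h, which was itself selected on its count and fold change in this same comparison of Areg with control libraries. The differences between the groups given for these 8 genes are therefore a description and are not offered as evidence. The files hold 36047 genes, of which 13362 passed the filter on low counts and were tested, and all 8 were among them.

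The samples were poly-A selected RNA of stellate cells isolated from mouse liver, where these cells store vitamin A and, once activated, lay down matrix. The 5 Areg libraries came from quiescent cells kept in culture for 5 h and then given 500 ng/mL of recombinant mouse Areg (amphiregulin, which binds the EGF receptor) during 4 h of starvation. The 5 control libraries came from cells taken through the same steps without Areg, and all cells came from male C57BL/6 mice. Nothing in the labels tells if libraries of 1 group are separate animals or cultures, so errors and p-values measure the spread between libraries, which may be technical.

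Ch25h adds a hydroxyl group to cholesterol and so makes 25-hydroxycholesterol. Cyp7b1 hydroxylates that product further, into a ligand of the migration receptor Gpr183, and Hsd3b7 takes this ligand towards bile acids. Cyp27a1 is the mitochondrial enzyme that makes 27-hydroxycholesterol and begins the alternative route of bile acid synthesis. Oxysterols activate the liver X receptors (LXR), encoded by Nr1h3 (LXR alpha) and Nr1h2 (LXR beta), which bind DNA together with a retinoid X receptor and raise the cholesterol exporters Abca1 and Abcg1. 25-Hydroxycholesterol also holds back SREBP2, the factor that drives cholesterol synthesis. In the liver Ch25h is best known from macrophages, and the bile acid enzymes from hepatocytes.

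Libraries held 14365027 to 20057962 estimated counts with Areg and 10125184 to 17566891 in controls. Controls 3 and 4 were the shallowest and stood apart on the first principal component of log2 CPM, at 46.6 and 28.6, with the Areg libraries at -16.5 to -10.6 and the other controls at -5.02 to 0.455. Stellate cell markers were abundant (10 genes, summed level 4366 to 4571 TPM with Areg and 4909 to 5854 TPM in controls), although Gfap stayed at or below 0.432 TPM, and 3 of the 9 tested fell with Areg. Markers of other liver cells were present as well. The 9 endothelial markers summed to 2563 to 2662 TPM with Areg and 2582 to 2967 TPM in controls, with 1 of 9 lower. The 10 hepatocyte markers summed to 1552 to 1873 TPM with Areg and 1497 to 2148 TPM in controls, with 1 higher and 1 lower. The 11 macrophage markers summed to 589.5 to 647.7 TPM with Areg and 609 to 689.3 TPM in controls, and 0 of 11 were called. The 6 cholangiocyte markers summed to 102 to 119 TPM with Areg and 48.4 to 58.9 TPM in controls, nearly all of it Spp1 (105.5 TPM with Areg, 52.0 TPM in controls), while Krt19 and Epcam averaged 1.03 and 0.270 TPM with Areg and 1.52 and 0.719 TPM in controls. The 8 smooth muscle and portal fibroblast markers summed to 206 to 234 TPM with Areg and 189.9 to 209.5 TPM in controls, with 1 of 7 tested higher, and the 8 lymphocyte markers to 1.33 to 2.05 TPM with Areg and 0.930 to 3.46 TPM in controls, with none tested. The part of any of these in the levels below was not tested. Which cells the RNA of the 8 genes came from is not measured, and in bulk RNA a change in the number of cells of a type and a change in RNA per cell cannot be told apart.

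Ch25h was the only one of the 8 genes called higher with Areg, and none was called lower. A gene is called here when edgeR's quasi-likelihood test gives an adjusted p under 0.05 over all genes tested, as held for 16.7% of the 13362 genes in either direction, for 8.34% in the higher direction and for 8.32% in the lower direction. The count of 1 of 8 is stated beside those shares and nothing is read from it. Ch25h (ENSMUSG00000050370.5) is a gene with a single exon on the minus strand of chromosome 19 (34473778 to 34475164, GRCm38). Its level per library was 16.4, 25, 23.4, 27.9 and 20.3 CPM in Areg libraries 1 to 5, against 9.19, 9.49, 11.75, 11.3 and 9.17 CPM in controls 1 to 5 (CPM are counts scaled to library size, here with TMM factors). Every Areg library lay above every control, with Areg 1 the lowest and Areg 4 the highest of the treated libraries and controls 3 and 4 the highest of the untreated ones. The groups' levels did not overlap for 14.7% of all genes tested, and Ch25h was the only such gene among the 8. Its mean was 22.6 ± 4.43 CPM with Areg and 10.2 ± 1.253 CPM in controls (SD, n = 5 each), a 2.235-fold difference with a 95% interval of 1.85-fold to 2.70-fold (log2 fold change 1.16, SE 0.13). These levels rest on 294 to 488 counts per Areg library and 117 to 163 counts per control library.

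**Figure D1:**
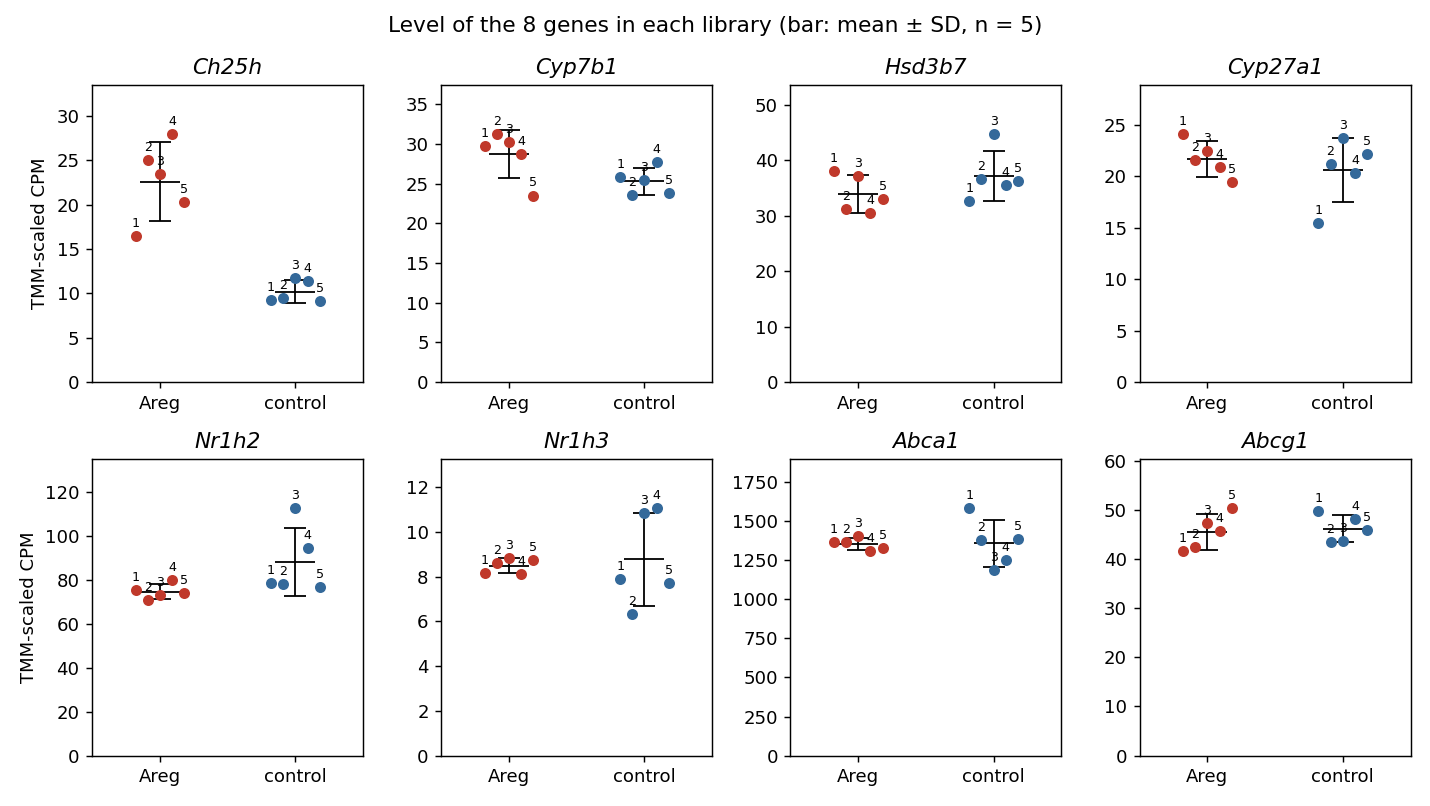
TMM-scaled CPM of each of the 8 genes (vertical axis, from 0, a separate scale per panel) in the 5 Areg libraries (left, red) and the 5 control libraries (right, blue), with the library number at each point and the mean ± SD as bars. Ch25h has all Areg points above all control points, from 16.4 CPM upward against at most 11.75 CPM, and the groups overlap for the other 7 genes.

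By size of rise Ch25h was in place 15 among the 1114 genes called higher. Its fold change was between 1.05 and 1.28 on the log2 scale under all 25 alternative settings of the analysis, and it was called under each of them. Without controls 3 and 4 it was 1.28. Reads from a gene with a single exon carry no splice junction, and the other 247 tested protein-coding genes that have only single-exon transcripts gave a median log2 fold change of 0.003, with 23 called higher and 16 lower (15.8% called). That comparison was chosen after the values were seen, and nothing about Ch25h is read from it. A long non-coding gene on the opposite strand, Gm26902, overlaps Ch25h. It has no transcript among those matched in the files, so its level was not measured. The strand setting of the counting is not given in the sources used here. Whether reads of Gm26902 were counted for Ch25h was not tested.

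The promoters of Ch25h and of Abca1 are printed because these genes stand at the ends of the pathway, the enzyme gene that was called and the classical LXR target that was not. The sequences run from 250 bases before to 50 bases after the start site, are given 5′ to 3′ on the gene's own strand, and come from RefSeq (build GRCm38.p6). A window was found for 6 of the 8 genes, without Cyp7b1 and Abcg1. Capitals in the Ch25h window (chr19:34475099-34475398, minus strand) mark a cyclic AMP response element, and capitals in the Abca1 window (chr4:53159846-53160145, minus strand) mark a direct repeat of the kind LXR binds, read on the opposite strand.
Ch25h: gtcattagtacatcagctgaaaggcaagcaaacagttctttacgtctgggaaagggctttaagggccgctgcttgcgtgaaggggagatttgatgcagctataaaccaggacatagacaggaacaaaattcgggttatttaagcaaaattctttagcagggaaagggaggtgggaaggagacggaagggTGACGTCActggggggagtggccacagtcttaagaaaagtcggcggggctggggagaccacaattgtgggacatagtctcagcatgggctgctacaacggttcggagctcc
Abca1: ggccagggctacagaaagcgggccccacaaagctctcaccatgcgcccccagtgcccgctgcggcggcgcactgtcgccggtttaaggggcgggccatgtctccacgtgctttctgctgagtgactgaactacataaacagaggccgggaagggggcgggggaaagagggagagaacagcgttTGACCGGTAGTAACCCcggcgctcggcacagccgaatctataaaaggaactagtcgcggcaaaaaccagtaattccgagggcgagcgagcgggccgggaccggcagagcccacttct

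The cyclic AMP response element, searched as TGACGTCA on both strands, begins 61 bases before the Ch25h start site and is present in 1.79% of the 32851 promoter windows of this length. The direct repeat, searched on both strands as NGGTNA followed after 4 bases by NGGTCA, begins 67 bases before the Abca1 start site and is present in 0.207% of the windows. Neither was found in any other of the windows of the 8 genes. The AP-1 site (TGANTCA, in 7.81% of all windows) and the interferon element (GAAA, NN, GAAA in a row, in 3.44%) were found in none of the 6 genes with a window. The TATA box (TATAAA, in 13.6% of all windows) was found 151 bases before the Ch25h start site and 29 before that of Abca1. The E-box (CACGTG, in 7.15%) was found 147 bases before the Abca1 start site. The Nr1h2 window held 6 matches of the ETS core CCGGAAG on either strand, of which a pair just after the start site overlap. Any match of this core on either strand is present in 8.86% of all windows. The motifs were chosen after the windows had been read, and a match is a run of letters, not a measured site.

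The enzymes downstream of Ch25h were not called. Cyp7b1 (chromosome 3, 18071950 to 18243338, minus strand) had 29.7, 31.2, 30.25, 28.8 and 23.5 CPM in Areg libraries 1 to 5, against 25.8, 23.6, 25.4, 27.7 and 23.9 CPM in controls 1 to 5. The groups overlapped because Areg 5 lay below every control, while the other 4 Areg libraries lay above every control. Its fold change was 1.14 (95% interval 1.015 to 1.27), and without Areg 5 it was called, with a log2 fold change of 0.25. With controls 3 and 4 left out and a trend over transcript length removed it was called too, at 0.23.

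Hsd3b7 (chromosome 7, 127800604 to 127803802, plus strand) had 38.1, 31.15, 37.1, 30.5 and 32.97 CPM in Areg libraries 1 to 5, against 32.7, 36.7, 44.7, 35.5 and 36.3 CPM in controls 1 to 5. The groups overlapped, with control 3 the highest library and Areg 4 the lowest. The fold change was 0.919 (95% interval 0.813 to 1.04). Another protein-coding gene on the same strand, Gm49388, ends with Hsd3b7 and covers it, and held 0.135 TPM with Areg and 0.199 TPM in controls, so the sharing of reads between them makes the value uncertain. Cyp27a1 (chromosome 1, 74713574 to 74737892, plus strand) had 24.1, 21.6, 22.4, 20.9 and 19.4 CPM in Areg libraries 1 to 5, against 15.5, 21.2, 23.7, 20.4 and 22.1 CPM in controls 1 to 5. The control libraries spanned the whole Areg range but for Areg 1, and control 1 was the lowest library. The fold change was 1.06 (95% interval 0.919 to 1.22).

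Neither LXR gene was called. Nr1h2 (chromosome 7, 44549616 to 44553951, minus strand) had 75.2, 70.6, 73.15, 79.8 and 74.1 CPM in Areg libraries 1 to 5, against 78.5, 78.2, 112.6, 94.35 and 76.55 CPM in controls 1 to 5. Controls 3 and 4 were the highest libraries, and the other 3 controls lay inside the Areg range, above every Areg library but Areg 4. The fold change was 0.850 (95% interval 0.742 to 0.974), which did not pass the adjusted threshold. Without controls 3 and 4 the log2 fold change moved to -0.06, against -0.23 with all libraries. Nr1h3 (chromosome 2, 91184061 to 91202834, minus strand) was the least abundant of the 8, at 8.15, 8.61, 8.82, 8.12 and 8.76 CPM in Areg libraries 1 to 5, against 7.89, 6.35, 10.8, 11.1 and 7.72 CPM in controls 1 to 5. Its Areg libraries were nearly level and lay between the high controls 3 and 4 and the other 3 controls. The fold change was 0.983 (95% interval 0.810 to 1.19), and its log2 value was 0.22 without controls 3 and 4 and -0.02 with all libraries, not called in either. A processed transcript on the same strand, Gm13783, overlaps Nr1h3 and also has no matched transcript in the files. Whether its reads were counted for Nr1h3 was not tested.

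Neither cholesterol exporter was called, and both had intervals close to a fold of 1. Abca1 (chromosome 4, 53030787 to 53159895, minus strand) had 1362, 1367, 1401, 1307 and 1328 CPM in Areg libraries 1 to 5, against 1581, 1376, 1188, 1252 and 1384 CPM in controls 1 to 5. All Areg libraries lay within the control range, with controls 3 and 4 the lowest and control 1 the highest. The fold change was 0.997 (95% interval 0.907 to 1.10), and the log2 value was -0.09 without controls 3 and 4. Abcg1 (chromosome 17, 31057675 to 31117988, plus strand) had 41.7, 42.4, 47.3, 45.7 and 50.3 CPM in Areg libraries 1 to 5, against 49.7, 43.4, 43.7, 48.1 and 45.9 CPM in controls 1 to 5. The groups were interleaved, and the fold change was 0.985 (95% interval 0.897 to 1.08). Missing the threshold does not show that these 7 genes stayed the same.

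**Figure D2:**
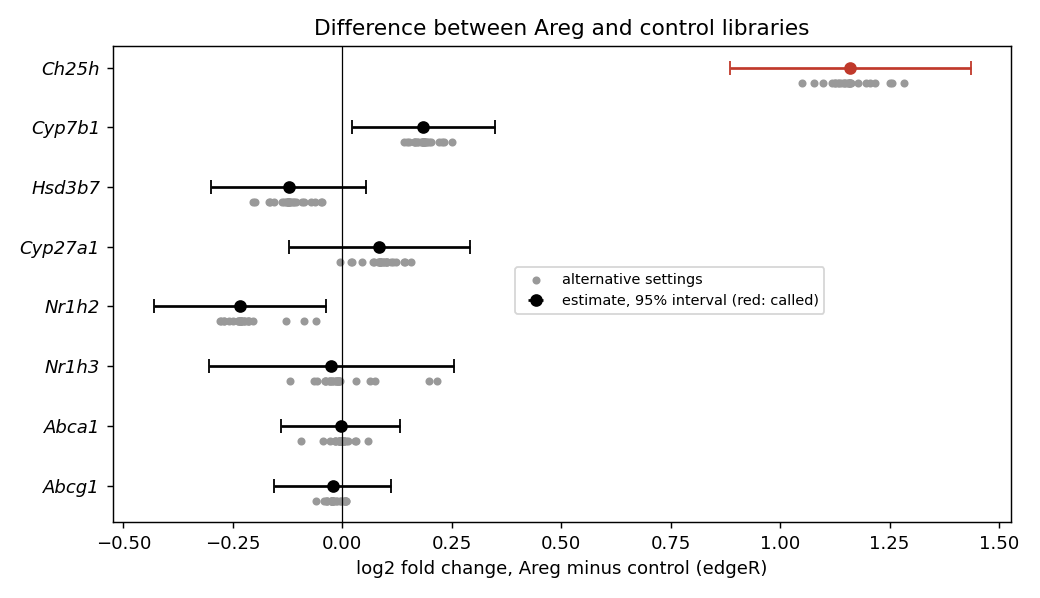
log2 fold change of each gene, Areg minus control (horizontal axis), from the edgeR fit over all genes tested, with its 95% interval as a bar (red where called). The smaller grey points below each bar are the 25 alternative settings. Ch25h stands at 1.16 with all alternatives between 1.05 and 1.28. The main estimates of the other 7 genes lie between -0.23 and 0.19, and their alternatives between -0.28 (Nr1h2) and 0.25 (Cyp7b1).

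Controls 3 and 4 differed from the other 3 controls in several of these genes. Both lay above all 3 for Ch25h, Nr1h2 and Nr1h3 and below all 3 for Abca1, and neither pattern held for Cyp7b1, Hsd3b7, Cyp27a1 and Abcg1. Over all 13362 genes both lay above the other controls for 3105 and below them for 3014. The spread within groups on the log2 CPM scale, with a median of 0.14 over all genes tested, was 0.24 for Ch25h, 0.24 for Nr1h3, 0.18 for Cyp27a1, 0.18 for Nr1h2, 0.16 for Hsd3b7, 0.13 for Cyp7b1, 0.12 for Abca1 and 0.10 for Abcg1. The part of depth or RNA quality in this was not tested.

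Levels between genes were compared per transcript length, in TPM. In controls Abca1 had the highest level of the 8, 224 ± 35.5 TPM, followed by Nr1h2 at 114 ± 14.9 TPM and Hsd3b7 at 38.75 ± 2.88 TPM (SD, n = 5). The ranges of Cyp27a1 (20.7 ± 3.05 TPM), Cyp7b1 (20.65 ± 1.48 TPM) and Abcg1 (19.2 ± 2.57 TPM) overlapped, and their order was not the same in all 5 control libraries. Ch25h followed at 13.6 ± 1.21 TPM, below Abcg1 and above Nr1h3 (8.92 ± 1.98 TPM) in each of the 5 controls. With Areg the levels were 221 ± 12.2 TPM for Abca1, 96.7 ± 4.46 TPM for Nr1h2, 33.8 ± 4.201 TPM for Hsd3b7 and 29.6 ± 5.62 TPM for Ch25h. Ch25h held place 3 to 6 in the Areg libraries, against place 7 in every control, and with Areg its range overlapped those of Hsd3b7, Cyp7b1, Cyp27a1 and Abcg1. In Areg 1 it lay below both Cyp7b1 and Cyp27a1. Cyp7b1 (22.9 ± 2.47 TPM), Cyp27a1 (20.9 ± 2.16 TPM), Abcg1 (19.3 ± 3.11 TPM) and Nr1h3 (8.70 ± 0.269 TPM) came after it.

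The TPM of Ch25h relative to that of Cyp7b1, the enzyme that uses its product, was 1.30 ± 0.251 with Areg and 0.662 ± 0.0628 in controls (SD, n = 5 each). It was 0.908, 1.32, 1.27, 1.59 and 1.41 in Areg libraries 1 to 5, against 0.585, 0.661, 0.757, 0.673 and 0.634 in controls 1 to 5. More Ch25h than Cyp7b1 transcript was thus present in 4 of 5 Areg libraries and in 0 of 5 controls. This ratio follows from the choice of Ch25h and was not tested.

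**Figure D3:**
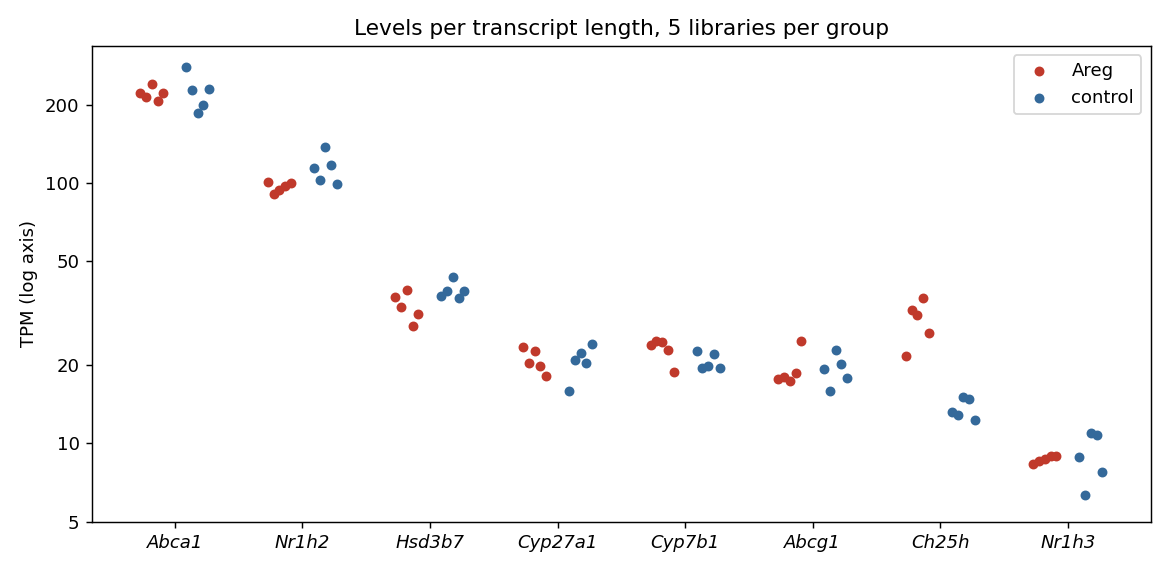
TPM of each gene on a log axis (vertical) in the 5 Areg (red, left of each pair) and 5 control libraries (blue), with genes ordered by their control mean from Abca1 (224 TPM) to Nr1h3 (8.92 TPM). Ch25h lies between Abcg1 and Nr1h3 in controls and beside Hsd3b7 and Cyp7b1 with Areg.

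Several of the genes held much of their level in transcripts that the annotation does not call protein-coding. For Hsd3b7, 53.3 ± 3.28% of the TPM with Areg and 52.2 ± 5.39% in controls was assigned to 5 retained-intron transcripts, and the most abundant of all 13 was Hsd3b7-210, which is of that class and held 37.65% of the gene's TPM with Areg and 37.3% in controls. The coding transcript Hsd3b7-201 held 36.01% with Areg and 33.3% in controls. Retained-intron transcripts made up 30.9 ± 7.17% of Nr1h2 with Areg and 28.95 ± 2.05% in controls, and 21.0 ± 14.7% of Nr1h3 with Areg and 20.5 ± 9.28% in controls. These shares differed between the groups by less than the spread between libraries. Ch25h and Cyp7b1 had a single transcript each, and coding transcripts held 94.8 ± 3.09% of Cyp27a1, 96.8 ± 2.90% of Abca1 and 98.9 ± 0.6695% of Abcg1 with Areg, against 91.8 ± 6.725%, 97.9 ± 1.01% and 98.45 ± 1.47% in controls.

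Among single transcripts, Abca1-201 held 96.7% of Abca1 with Areg and 97.9% in controls, and Cyp27a1-201 held 94.55% of its gene with Areg and 91.2% in controls. Abcg1 was shared between the long Abcg1-201 (62.2% with Areg, 64.8% in controls) and the 644-base Abcg1-203 (27.96% with Areg, 17.4% in controls). Nr1h2 was spread over 18 transcripts, of which Nr1h2-201 held 21.8% with Areg and 23.6% in controls, Nr1h2-202 held 18.1% with Areg and 21.4% in controls, and the retained-intron transcript Nr1h2-206 held 12.7% with Areg and 8.24% in controls. For Nr1h3, Nr1h3-202 held 44.0% with Areg and 16.7% in controls and Nr1h3-201 held 18.6% with Areg and 45.1% in controls. The retained-intron transcript Nr1h3-205 held 14.3% with Areg and 17.7% in controls, and the coding Nr1h3-204 held 10.8% with Areg and 16.3% in controls. Nr1h3-201 was at 1.62 ± 2.39 TPM with Areg, so its SD exceeded its mean, and with 114 to 175 counts per Areg library and 95 to 140 per control library for the whole gene the split between these similar transcripts is an uncertain estimate. With protein-coding transcripts alone, a setting added after the data had been seen, Ch25h was again the only called gene of the 8.

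**Figure D4:**
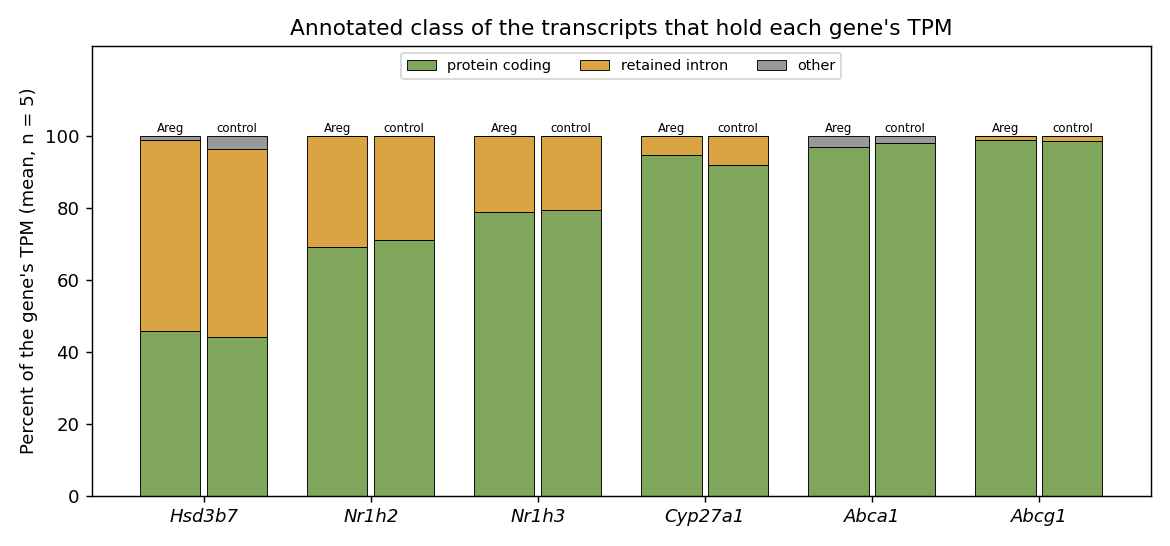
Mean percent of each gene's TPM (vertical axis, from 0, n = 5) held by transcripts annotated as protein-coding (green), retained intron (orange) or other (grey), with the Areg bar left of the control bar for each gene. Retained-intron transcripts hold the larger part of Hsd3b7 (53.3% with Areg, 52.2% in controls) and little of Cyp27a1, Abca1 and Abcg1.

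Reported LXR target genes other than the exporters did not move together. Of 22 tested, 1 rose, 3 fell and 18 were not called, with a median log2 fold change of -0.03, beside 16.7% called and a median of -0.01 over all genes tested. Srebf1, which encodes the factor that drives fatty acid synthesis, fell to 82.5 ± 3.91 CPM with Areg, against 98.45 ± 10.8 CPM in controls (log2 fold change -0.25, edgeR adjusted p = 0.0165). Pltp, the phospholipid transfer protein, was at 86.9 ± 3.14 CPM with Areg and 105 ± 15.8 CPM in controls (log2 fold change -0.27, edgeR adjusted p = 0.0297). The groups overlapped for both, with controls 3 and 4 the highest. The desaturase gene Fads1 fell to 49.0 ± 2.46 CPM with Areg, against 56.8 ± 4.25 CPM in controls (log2 fold change -0.21, edgeR adjusted p = 0.0221). Lpl, the lipoprotein lipase gene, rose to 401 ± 9.62 CPM with Areg, against 357 ± 22.7 CPM in controls (log2 fold change 0.17, edgeR adjusted p = 0.0258). The ubiquitin ligase gene Mylip, another LXR target, had a log2 fold change of -0.01, and Apoe, which carries cholesterol away from cells, had -0.02; these were chosen after their values were seen.

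Those calls were close to the threshold. The count was 4 with all libraries, 2 without Areg 1, 1 without Areg 2 and 5 without controls 3 and 4. Those 5 were not the 4 and another: the call of Pltp was lost without controls 3 and 4 (log2 fold change -0.13, edgeR adjusted p = 0.0708), and Lpcat3 (higher) and Mertk (lower) were called in addition to Srebf1, Fads1 and Lpl. The log2 fold change of Srebf1 was then -0.15 (edgeR adjusted p = 0.0488), against -0.25 with all libraries. That of Lpl was then 0.13, against 0.17 with all libraries. The call of Srebf1 was lost without Areg 2 (edgeR adjusted p = 0.0567), that of Fads1 without Areg 1 or Areg 2, that of Lpl without Areg 3, Areg 4 or Areg 5, and that of Pltp without control 4, Areg 1, Areg 2 or Areg 5. Over these the edgeR adjusted p was 0.0546 to 0.0819. None of the 4 was called on the TPM scale.

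Genes of cholesterol synthesis and uptake and of SREBP control, the other arm of oxysterol sensing, gave 1 call among 29 tested (3.45%, against 16.7% of all genes). Hmgcs1, which makes the precursor of mevalonate, rose to 58.9 ± 1.78 CPM with Areg, against 48.1 ± 4.74 CPM in controls (log2 fold change 0.29, SE 0.06, edgeR adjusted p = 0.00597), with no overlap between the groups. Controls 3 and 4 were the lowest libraries for Hmgcs1, at 42.5 and 44.1 CPM. Without them its log2 fold change was 0.20 (edgeR adjusted p = 0.00869). The median of the list was -0.03. Msmo1, a sterol oxidase of the same pathway, and Srebf2, which encodes SREBP2, had log2 fold changes of 0.18 and -0.16 and edgeR adjusted p of 0.0734 and 0.0848. Msmo1 was called without control 4 (edgeR adjusted p = 0.0483) and Srebf2 without Areg 3 (edgeR adjusted p = 0.0471). The list's count was 2 without control 3, 4 or 5 or without Areg 3 or 5. The sterol sensors Insig1 and Scap, named after their values were seen, had log2 fold changes of -0.03 and -0.17 and were not called.

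Other enzymes of oxysterol and bile acid formation were not called in edgeR's test. Of 20 genes, 5 were below the filter (Cyp46a1, Cyp39a1, Cyp7a1, Cyp11a1 and Sult2b1). Of the 15 tested, 0 passed, beside 16.7% of all genes tested, with a median log2 fold change of -0.02. At an unadjusted edgeR p under 0.05 the count was 1, beside 31.4% of all genes tested: the reductase gene Por, and DESeq2 called that same gene. Por, which passes electrons to microsomal P450 enzymes such as Cyp7b1, had 732 ± 16.2 CPM with Areg and 807 ± 58.4 CPM in controls (log2 fold change -0.14, edgeR adjusted p = 0.0685). All its Areg libraries lay below all controls in CPM, with controls 3 and 4 the highest, and the groups overlapped in TPM. It was called lower without control 5, and its log2 fold change was -0.07 without controls 3 and 4 (edgeR adjusted p = 0.233) and -0.06 on the log2(TPM + 1) scale. Fdx1, the electron donor of Cyp27a1, had 32.5 ± 2.37 CPM with Areg and 30.3 ± 1.65 CPM in controls. Cyp8b1 had 4.70 ± 0.940 CPM with Areg and 5.97 ± 1.575 CPM in controls. The peroxisomal oxidase gene Acox2 had 7.69 ± 1.11 CPM with Areg and 6.39 ± 1.58 CPM in controls, and was called higher without control 3 (log2 fold change 0.43, edgeR adjusted p = 0.0438) and without controls 3 and 4 (log2 fold change 0.54, edgeR adjusted p = 0.00849). Cyp7a1, the rate-limiting enzyme of the classical bile acid route, was at 0.0802 TPM with Areg and 0.0650 TPM in controls.

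Of receptors and binding proteins of oxysterols, listed together with the retinoid X receptors as LXR partners, 4 of 19 tested were called lower and none higher. Over all genes tested 8.32% were called lower. The median log2 fold change of the list was -0.07, against -0.01 over all genes. Rxra, a retinoid X receptor with which the LXRs pair, fell to 103 ± 4.85 CPM with Areg, against 131 ± 4.66 CPM in controls (log2 fold change -0.35, SE 0.05, edgeR adjusted p = 0.000169). Every Areg library, at 95.7 to 109 CPM, lay below every control, at 126.5 to 136 CPM. Rxrb, another partner, had 37.3 ± 2.005 CPM with Areg and 43.8 ± 5.31 CPM in controls (log2 fold change -0.22, edgeR adjusted p = 0.0483), with controls 3 and 4 the highest. Npc1, which moves cholesterol out of lysosomes, fell to 126 ± 3.90 CPM with Areg, against 144 ± 3.71 CPM in controls (log2 fold change -0.19, edgeR adjusted p = 0.00693).

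The calls of Rxra and Npc1 were kept without each library and without controls 3 and 4, and were lost on the TPM scale. Without controls 3 and 4 the count was 2. It was also 2 without control 3, Areg 1, Areg 4 or Areg 5. The call of Rxrb was lost without control 3 or 4 or Areg 1, 2, 4 or 5, with edgeR adjusted p of 0.0802 to 0.133. Without controls 3 and 4 together its log2 fold change was -0.10 (edgeR adjusted p = 0.287), and it was lost under 13 of the 25 alternatives in all. Gpr183, whose ligand Ch25h and Cyp7b1 make, was chosen after its values were seen and lay at 0.848 ± 0.236 CPM with Areg and 0.826 ± 0.280 CPM in controls.

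Of genes of cholesterol storage and efflux, 4 of 9 tested were called lower and none higher, beside 8.32% of all genes tested called lower. Their median log2 fold change was -0.05, against -0.01 over all genes. Abca7, a transporter related to Abca1, had 43.2, 38.1, 36.6, 38.8 and 37.0 CPM in Areg libraries 1 to 5, against 55.1, 55.0, 49.4, 50.9 and 45.1 CPM in controls 1 to 5. Every Areg library lay below every control (log2 fold change -0.40, SE 0.07, edgeR adjusted p = 0.000863). Lipa, the lysosomal acid lipase that frees cholesterol from esters, fell to 171.5 ± 3.125 CPM with Areg, against 193 ± 7.54 CPM in controls (log2 fold change -0.17, edgeR adjusted p = 0.0108). It lies on chromosome 19 (34492318 to 34527474, minus strand), close to Ch25h. Scarb1, the HDL receptor, fell to 87.2 ± 3.58 CPM with Areg, against 100.9 ± 8.69 CPM in controls (edgeR adjusted p = 0.0219), and the ester hydrolase gene Nceh1 fell to 25.65 ± 1.96 CPM with Areg, against 30.0 ± 1.29 CPM in controls (edgeR adjusted p = 0.0254).

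The groups did not overlap for these 4 of the 9 genes tested, beside 14.7% of all genes tested. Abca7 and Lipa were called under all 25 alternatives. The call of Scarb1 was lost without Areg 2, 4 or 5 and without controls 3 and 4 together (edgeR adjusted p 0.0515 to 0.0705), where its log2 fold change was -0.13, against -0.21 with all libraries. The call of Nceh1 was lost without control 1 or Areg 1, 2 or 4 (edgeR adjusted p 0.0544 to 0.0756), with no filter on low counts (0.0663) and on the TPM scale with either pseudocount (limma adjusted p 0.0935 and 0.0946). The list's count was 2 without Areg 2 or Areg 4 and 3 without controls 3 and 4. The esterifying enzyme gene Soat1, named after its values were seen, had a log2 fold change of 0.02.

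**Figure D5:**
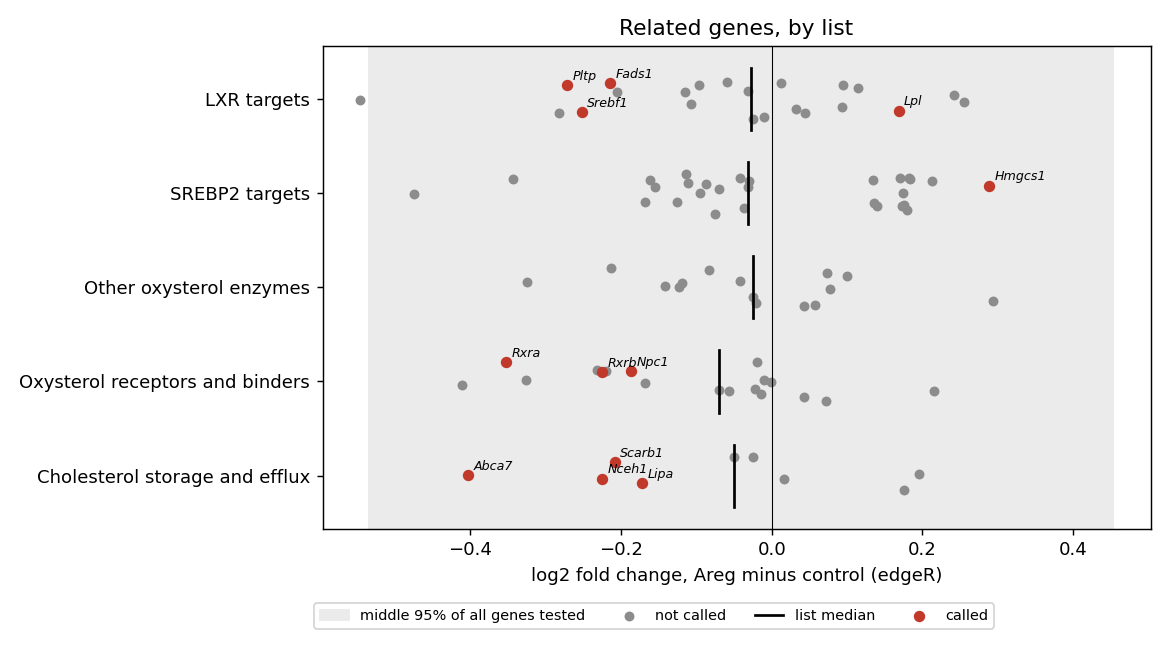
log2 fold change, Areg minus control (horizontal axis), of tested genes of the 5 related lists, with called genes in red and named, other genes in grey, and the median of the whole list as a black bar (points are spread vertically for legibility). The grey band holds the middle 95% of all genes tested, from -0.53 to 0.45, and the called genes drawn lie inside it.

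The genes whose pattern over the 10 libraries was closest to that of Ch25h were Ccn2, Prg4, Rgs16, Stc1 and Ankrd1. Likeness was the root-mean-square difference between log2 CPM profiles, each centred on its own mean, over 12323 protein-coding genes averaging 1 CPM or more. It was 0.17, 0.18, 0.20, 0.21 and 0.22 for these 5 genes, against a median of 0.62 over all candidates. As the profile of Ch25h is set largely by the difference between the groups, all 5 rose with Areg, with log2 fold changes of 1.00, 1.03, 1.01, 0.95 and 0.83. Ccn2, the connective tissue growth factor gene, had 287, 394, 344, 454.5 and 349.6 CPM in Areg libraries 1 to 5, against 178, 172, 161, 234 and 167 CPM in controls 1 to 5. As for Ch25h, Areg 1 was the lowest and Areg 4 the highest of the Areg libraries. Prg4, the lubricin gene, had 20.6 to 32.7 CPM with Areg and 10.7 to 15.15 CPM in controls. Rgs16, a regulator of G-protein signalling, had 15.9 to 19.8 CPM with Areg and 8.13 to 9.47 CPM in controls. Stc1, the gene of the secreted glycoprotein stanniocalcin, had 315 to 353 CPM with Areg and 158.5 to 179.5 CPM in controls, and Ankrd1, an ankyrin repeat protein gene, had 19.8 to 24.4 CPM with Areg and 9.59 to 15.6 CPM in controls.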

How the data were processed

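Libraries were made from poly-A RNA with TruSeq chemistry, per the labels' protocols. The deposited files give kallisto's estimated counts per transcript, which need not be whole, and the authors' TPM per transcript, a length-scaled level, per the file headers. Per the submitters' processing notes, bcl2fastq 2.19, kallisto 0.44.0 and DESeq2 were used, with build GRCm38.p6. The transcript set and the strand setting were not given in the sources used here.

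Of 118489 transcripts, 116816 matched GENCODE M21 (GRCm38), which gave genes and coordinates. Estimated counts were summed per gene and rounded. The 1673 unmatched transcripts held 0.736 to 0.778% of counts and were left out. No 2 libraries of a group agreed within sampling noise (their lowest chi-square over its degrees of freedom was 3.77). This ratio was 3.77 to 10.3 between Areg libraries, 5.115 to 9.66 between controls 1, 2 and 5, and 5.00 between controls 3 and 4. Between control 3 or 4 and the other controls it was 19.4 to 49.7.

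Areg libraries were compared with controls by edgeR 4.0.16 (R 4.3.3; filterByExpr with minimum count 10, TMM, robust quasi-likelihood fit, Benjamini-Hochberg, threshold 0.05). Intervals are 95% intervals of the fold change from its SE. On the log2(TPM + 1) scale 856 genes were called, 37.6% of them higher, against 2226 and 50.04% in the main test. The test was checked on simulated data for Areg against control with 200 of 13362 genes changed: it recovered 41.5% of 1.25-fold, 71.3% of 1.5-fold and 92.4% of 2-fold changes, with 7.075% false calls.

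The 8 genes, the 5 lists and the cell type markers were chosen with earlier results of these data known. Named genes are the 8, up to 4 genes per list with the smallest p, the 5 genes most like Ch25h, and transcripts with at least 10% of a gene's TPM. Alternatives were other normalizations and filters, DESeq2 1.42.0, limma 3.58.1 (voom, and trend on log2 TPM with pseudocounts 1 and 0.1), length corrections, the replicate number as a block, leaving out libraries and, added later, protein-coding transcripts alone. A few list genes that the rule names are counted in their lists but not reported here by name.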

Additional observations from a re-analysis of the deposited data

Results flagged for a closer look

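None of the 8 genes had a library that stood apart by Dixon's ratio. Among 66 groups of 5 libraries examined (33 named genes), 4 held a library whose gap to the next exceeded 0.71 of the range, where chance gives about 1 in 20 groups. Srebf2 was at 100.2 CPM in Areg 3, against 87.4 to 89.2 CPM in the other Areg libraries. Cyp8b1 was at 6.30 CPM in Areg 2, against 3.93 to 4.58 CPM in the others. Ccn2 was at 234 CPM in control 4, against 161 to 178 CPM in the other controls, and Stc1 was at 158.5 CPM in control 5, against 177 to 179.5 CPM.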

How the results depend on the processing

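Ch25h kept its direction and its call under all 25 alternatives (log2 fold change 1.05 to 1.28). The count of called genes among the 8 was 1 in the main test, 2 with the replicate block and the length trend removed (Nr1h2 lower) and 2 with controls 3 and 4 left out and the length trend removed (Cyp7b1 higher). Leaving out 1 library at a time gave 1 to 2 among the 8, 1364 to 2314 over all genes against 2226, 1 to 5 LXR targets, 1 to 2 SREBP2 targets, 0 to 1 other oxysterol enzymes, 2 to 5 receptors and binders and 2 to 4 storage and efflux genes. Without Areg 2 the count over all genes was the lowest, 1364. On the TPM scale 856 (pseudocount 1) and 868 (pseudocount 0.1) genes were called, with 0 LXR targets, 0 SREBP2 targets and 0 receptors and binders under each. Of the other enzymes 1 was called (0 in the main test) under 5 of these settings, but not the same gene: it was Por, lower, with DESeq2 (1), with the length trend removed (1) and with the block and the trend removed (1), and Acox2, higher, with controls 3 and 4 left out, with or without the trend removed (1 each). Receptors and binders were 2 with controls 3 and 4 left out, with or without the trend removed. SREBP2 targets were 4 with the replicate block, 6 with the block and the trend removed, and 2 with controls 3 and 4 left out and the trend removed. The cause was not tested. The block gave 2357 called genes, but same-numbered libraries correlated by only -0.05 to 0.14, 2 of 5 Areg libraries correlated best with their own number, and the labels give the numbers no meaning. Small changes were often missed even in the simulated data, which lacked the shift shared by controls 3 and 4. This limits what can be said of the genes that were not called.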
